A study of Mus musculus with 12 samples.

Results

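The RNA of immortalised mouse embryonic fibroblasts was counted over 60983 annotated reading frames of endogenous retroviruses, of which 47031 are shorter than 1500 bases (end minus start). Of these short frames, 1207 (2.57%) had counts that summed to 20 or more over the 12 libraries, and these 1207 frames are described here. The members were thus chosen by their length and by their own counts. The sum runs over all libraries and ignores the groups, but a frame counted in a single line could pass only through that line, so the number and level of the members are a description and carry no test. No count at all was listed for 38218 short frames. Of the 13952 longer frames, 587 (4.21%) reached the same count.

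Endogenous retroviruses are the remains of retroviruses that entered the germ line. A complete copy holds the gag frame (structural proteins, with a zinc knuckle that binds the viral RNA), the pol frame (protease, reverse transcriptase, integrase) and often env, between a pair of long terminal repeats that act as promoters. Most copies in the mouse are broken, and short open frames are what remains of them. Some frames were taken over by the host as genes of its own, and host domains that resemble gag or pol can also enter such a catalogue. In fibroblasts most copies are silenced by DNA methylation and by histone H3 lysine 9 methylation, which Trim28 directs together with zinc finger proteins. The title of the series concerns spontaneous expression of ZBP1, a sensor of left-handed double-stranded nucleic acid, and necroptosis, a lytic cell death that MLKL carries out and that caspase-8 and its adaptor FADD hold back. The comparisons below ask whether short retroviral frames change when Fadd or Casp8 is put back.

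The 4 groups hold 3 libraries each, from independent cultures that were untreated and harvested 24 hours after plating. All cells carry SV40 large T antigen and lack Mlkl. Fadd-/-Mlkl-/- cells carried an empty vector (the Fadd/Mlkl knockout) or ectopic Fadd (the Fadd put-back), and Casp8-/-Mlkl-/- cells carried an empty vector (the Casp8/Mlkl knockout) or ectopic Casp8 (the Casp8 put-back). The Fadd line below means the first pair of groups and the Casp8 line the second. The labels do not say how many embryos or clones each line comes from or which promoter drives the put-back gene, so the p-values measure the spread between cultures of a line. Total RNA was made into strand-specific libraries and sequenced as read pairs. Levels are given as CPM, the counts of a frame scaled to the total of the gene table of the same library.

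Gene-table totals ran from 33918359 (Casp8/Mlkl knockout replicate 3) to 59388559 counts. Fadd was at 0.183, 0.0372 and 0.0871 CPM in the Fadd/Mlkl knockout and at 28.0, 19.9 and 25.6 CPM in its put-back. Casp8 was at 11.9, 10.8 and 10.4 CPM in the Casp8/Mlkl knockout and at 68.3, 162 and 175 CPM in its put-back. Mlkl reads (3.55 to 17 CPM) were present in all libraries, and the labels do not say which part of the gene is deleted. Several libraries stood apart. In Casp8/Mlkl knockout replicate 1 and Casp8 put-back replicate 1, the Y-linked gene Ddx3y was at 23.2 and 62.3 CPM, against 110 to 126 CPM in the other 4 libraries of that line, and Casp8 at 68.3 CPM in that put-back library was the lowest of its group. For these 2 libraries a mixture of cells, loss of the Y chromosome and a label that does not match the cells cannot be told apart. Fadd/Mlkl knockout replicate 1 had the highest summed level of 40 interferon response genes (8130 CPM, against 422 to 2420 elsewhere). Fadd/Mlkl knockout replicate 1 and Casp8/Mlkl knockout replicate 3 also had the most short frames with any count, 3439 and 3629, against 2213 to 3159 in the others. Where a named call was lost without one of these libraries, its value without it is given. The 10 fibroblast markers summed to 1850 to 14700 CPM. The 6 leukocyte markers stayed at 0.0731 to 1.2 CPM and the 5 markers of pluripotent and early embryonic cells at 0.202 to 2.22 CPM. In bulk RNA, fewer transcribing cells and less RNA per cell cannot be told apart.

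Bases were read here only for frames in annotated exons, from the transcripts of the gene annotation (GENCODE M21, GRCm38/mm10). Of 4 host genes searched, the coding parts of the Cnbp and Peg10 members held the CCHC zinc knuckle, the nucleic acid binding motif of retroviral gag proteins. Peg10 is an imprinted gene that descends from the gag and pol of a retrotransposon. Cnbp is a cellular nucleic acid binding protein built of such knuckles. The motif was searched on the coding strand in the gene's own reading frame. The stretches are shown because 2 of the 10 highest members hold this gag-like motif within host genes; capitals mark the codons of the 3 cysteines and the histidine.
Cnbp, knuckle at chr6:87845268-87845323, minus strand: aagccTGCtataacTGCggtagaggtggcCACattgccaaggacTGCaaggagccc
Cnbp, knuckle at chr6:87845196-87845255, minus strand: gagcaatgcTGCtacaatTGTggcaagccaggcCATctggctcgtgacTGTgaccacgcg
Cnbp, knuckle at chr6:87845133-87845192, minus strand: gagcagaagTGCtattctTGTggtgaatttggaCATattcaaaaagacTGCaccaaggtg
Peg10, knuckle at chr6:4755247-4755306, plus strand: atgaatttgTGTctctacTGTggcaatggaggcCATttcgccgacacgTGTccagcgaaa
The search pattern sets the order of the capital codons, so it is the same in all 4 stretches by construction. Among the 170 short frames that lie whole inside a single annotated exon, 6 (3.53%) held the motif on the frame's strand, and none of the 23 members among these 170 did. A match is a description of the letters and says nothing on binding.

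The members were short and thinly covered. Their median length was 552 bases (243 to 1500), and their median count over all 12 libraries was 47. Under 50 counts were listed for 633 members, and 1000 or more for 24. Together the members held 55.3% of all counts over retroviral frames. Of the members' counts the highest frame held 15.0%, the first 2 held 23.1%, the first 10 held 59.2% and the first 50 held 75.8%. Joined over gaps of up to 5000 bases on a strand, the members formed 824 stretches, of which 667 were a lone member and the largest had 11. On the same strand 215 members overlapped another member, so reads can be shared between neighbours, and members of a stretch are not separate observations. At the length limit, the frame at chr11:121399719-121401218 (1500 bases, 23 counts) was the longest member and the frame at chr13:92619459-92620964 (1506 bases, 44.5 counts) was the shortest counted frame outside. At the count limit, 20 members had exactly 20 counts and 15 short frames had 19.5.

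Most members lay inside host genes, but most of the counts did not come from introns. By the annotation, 539 members lay in an intron of a gene on the opposite strand (11.5% of the members' counts) and 345 in an intron of a gene on the same strand (14.6%). A further 226 were intergenic (28.2%), 50 overlapped an exon on the same strand (42.6%) and 47 an exon on the opposite strand (3.0%). The sources used here do not say how the frame table was counted with respect to strand. In introns of genes at 10 CPM or more, 257 of 441 same-strand frames (58.3%) and 462 of 907 opposite-strand frames (50.9%) were members, which are similar shares. Over exons of such genes the median count was 766 for 26 same-strand frames and 27.5 for 53 opposite-strand frames. Whether the reads over an intronic frame belong to its host gene's pre-mRNA was not tested, and the strand of an intronic frame is used here only to name its place.

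Among the members, 10 frames at 6 places stood above the rest, and none of them passed the test for a change with Fadd or Casp8 in the fit over all frames. Per kilobase of frame, the exon frames of Cnbp (159 CPM per kilobase) and Ctsd (156) were the highest of these 10. Ctsd is cathepsin D, a lysosomal aspartic protease, the enzyme class of the retroviral protease. The intergenic pair on chromosome 17 followed at 118 and 124 CPM per kilobase. The 3 frames in the exon of Brip1os, a transcript antisense to Brip1, were at 44.2 to 55.1, the 2 overlapping frames in the exon of the long intergenic RNA Gm42047 at 19.2 and 21.5, and the Peg10 frame at 9.94 CPM per kilobase.

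**Figure D1:**
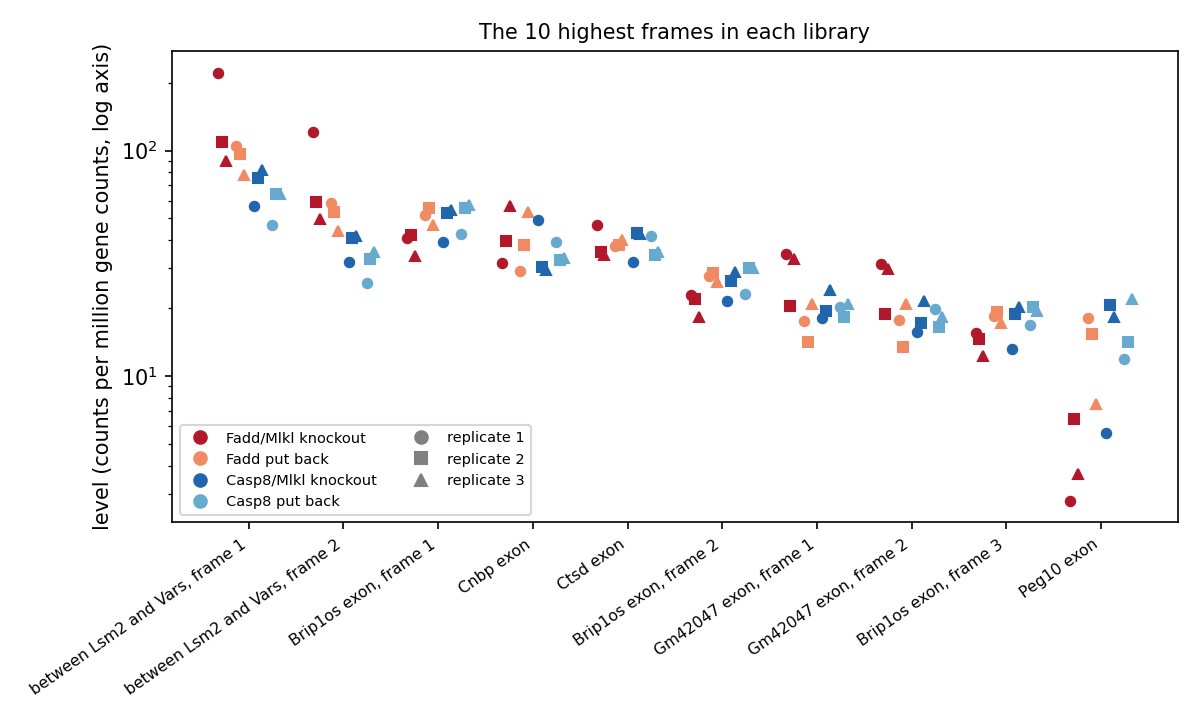
Level of the 10 highest short frames (CPM on a log axis) in each of the 12 libraries, coloured by group, with a marker for each replicate. The pair between Lsm2 and Vars reaches 221 and 121 CPM in Fadd/Mlkl knockout replicate 1, and the Peg10 frame is at 2.79 to 6.42 CPM in the Fadd/Mlkl knockout against 7.54 to 18.1 CPM in its put-back.

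The chromosome 17 pair (chr17:34997992-34998759 and chr17:34998853-34999251, minus strand) lies between Lsm2, a subunit of the spliceosomal LSm ring, and Vars, the valyl-tRNA synthetase. Its nearer end is 1736 bases from Vars, and both neighbours are on the plus strand. The pair summed to 343, 168 and 140 CPM in the Fadd/Mlkl knockout and to 163, 150 and 122 CPM in the Fadd put-back. It summed to 88.6, 116 and 124 CPM in the Casp8/Mlkl knockout and to 72.3, 96.9 and 99.8 CPM in the Casp8 put-back. Replicate 1 of the Fadd/Mlkl knockout was about 2-fold above the other libraries of its group, and within each line the groups overlapped. Taken by replicate number, the pair was higher in the knockout than in the put-back in 3 of 3 pairs of the Fadd line (2.1-, 1.12- and 1.14-fold) and in 3 of 3 pairs of the Casp8 line (1.23-, 1.2- and 1.24-fold; exact paired permutation test, two-sided, p = 0.25 in each line, the smallest that 3 pairs allow). Between the lines they did not overlap: the Fadd/Mlkl knockout was 1.98-fold above the Casp8/Mlkl knockout and the Fadd put-back 1.62-fold above the Casp8 put-back (exact permutation test, two-sided, p = 0.1 each, the smallest that 3 against 3 libraries allow). In the fit over all frames neither member passed between the knockout groups (edgeR adjusted p = 0.0627 and 0.0526) or between the put-back groups (0.422 and 0.345). Vars and Lsm2 themselves differed little between the knockout groups (log2 difference 0.02 and 0.24, edgeR adjusted p = 0.976 and 0.584).

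The Peg10 frame (chr6:4754122-4755348, plus strand) covers 1128 coding bases. It was at 2.79, 6.42 and 3.67 CPM in the Fadd/Mlkl knockout and at 18.1, 15.3 and 7.54 CPM in the put-back, so these groups did not overlap. It was at 5.56, 20.7 and 18.3 CPM in the Casp8/Mlkl knockout and at 11.9, 14.2 and 22 CPM in the Casp8 put-back, where they did. The fitted log2 change in the Fadd line was -1.63 (SE 0.475, edgeR adjusted p = 0.117) and passed the threshold of 0.05 with the replicate block within each line (adjusted p = 0.0331) and in DESeq2 (adjusted p = 0.0448). Between the knockout groups the Peg10 frame was lower in the Fadd line (log2 difference -1.85, edgeR adjusted p = 0.0178), a call lost without replicate 1 or 3 of the Fadd/Mlkl knockout or replicate 2 or 3 of the Casp8/Mlkl knockout (adjusted p = 0.0536 to 0.0757) and with frames scaled on the frame-table totals (0.0817). The whole Peg10 gene gave -1.63 in the Fadd line (edgeR adjusted p = 0.192), the same log2 change as its frame. The frames of Brip1os were 0.766 to 0.779 times as high in the Fadd/Mlkl knockout as in its put-back without overlap, and the Gm42047 frames 1.51 and 1.65 times as high with overlap. None of these 5 passed the threshold (edgeR adjusted p = 0.271 to 0.963), nor did Cnbp and Ctsd (adjusted p = 1.0). With the replicate block within each line, the Gm42047 frame at chr8:121839776 was called higher in the Fadd/Mlkl knockout (log2 change 0.75, edgeR adjusted p = 0.0403).

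Further members in coding exons on the same strand lay in Taf1 (a subunit of the general transcription factor TFIID), Park7 (the redox protein DJ-1), Sugp2, Gin1, Tnfrsf22 and Gm8113, which makes 9 such members with Cnbp, Ctsd and Peg10. Gin1, gypsy retrotransposon integrase 1, is another gene of retroelement origin. Its frame (chr1:97792275-97792568) was at 0.786, 1.03 and 1.14 CPM in the Fadd/Mlkl knockout and 1.02, 1.43 and 1.46 CPM in its put-back. It was at 1.1, 0.826 and 1.05 CPM in the Casp8/Mlkl knockout and 0.795, 2.07 and 2.03 CPM in the Casp8 put-back. Replicate 1 of the Casp8 put-back was thus below the other 2 libraries of its group, and without all replicate 1 libraries the frame was called lower in the Casp8/Mlkl knockout (log2 change -1.16, edgeR adjusted p = 0.0159).

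For the summed level of all 1207 members, none of the 4 comparisons between groups reached the smallest p that the exact test allows, and the groups overlapped in all 4. It was 927, 595 and 546 CPM in the Fadd/Mlkl knockout and 662, 584 and 565 CPM in its put-back (689 ± 207 and 604 ± 51.4, mean ± SD, n = 3 each; exact permutation test, two-sided, p = 0.8). It was 471, 590 and 855 CPM in the Casp8/Mlkl knockout and 533, 500 and 588 CPM in its put-back (638 ± 197 and 540 ± 44.2, n = 3 each; exact permutation test, p = 0.6). Within each knockout a single library stood above the rest, replicate 1 in the Fadd and replicate 3 in the Casp8 line. Without that library the log2 ratio to the put-back turned from 0.19 to -0.08 in the Fadd line and from 0.24 to -0.03 in the Casp8 line. The knockout groups gave a log2 ratio of 0.11 (Fadd over Casp8; exact permutation test, p = 0.6), which turned to -0.16 without Fadd/Mlkl knockout replicate 1, to -0.07 without Casp8/Mlkl knockout replicate 1 and to -0.05 without the highest frame. The put-back groups gave 0.16 (exact permutation test, p = 0.3).

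The sums varied between libraries to a different extent at each place. Sums over same-strand exon members stayed between 227 and 286 CPM in all 12 libraries. Intronic members on the opposite strand ran from 37.9 to 200 CPM, with 128 CPM in Fadd/Mlkl knockout replicate 1 and 200 CPM in Casp8/Mlkl knockout replicate 3, the libraries with the most short frames counted. Intronic members on the same strand reached 171 CPM in Casp8/Mlkl knockout replicate 3, against 65.1 to 112 CPM elsewhere. Intergenic members ran from 107 to 388 CPM, and most of this was the chromosome 17 pair, without which they ran from 21.8 to 47.8 CPM. Without the 10 highest frames the Fadd/Mlkl knockout summed to 252 ± 85.8 CPM and its put-back to 239 ± 45.4 CPM (mean ± SD, n = 3 each; exact permutation test, p = 0.8). The Casp8/Mlkl knockout then summed to 308 ± 168 CPM and its put-back to 226 ± 35.4 CPM (n = 3 each; exact permutation test, p = 0.8). Between the put-back groups, intergenic members (1.52-fold) and opposite-strand exon members (1.17-fold) were higher in the Fadd line without overlap (exact permutation test, p = 0.1 each). Without the chromosome 17 pair the intergenic members were 1.18-fold higher with overlap (exact permutation test, p = 0.4). The part of depth and of intronic RNA in these sums was not tested.

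**Figure D2:**
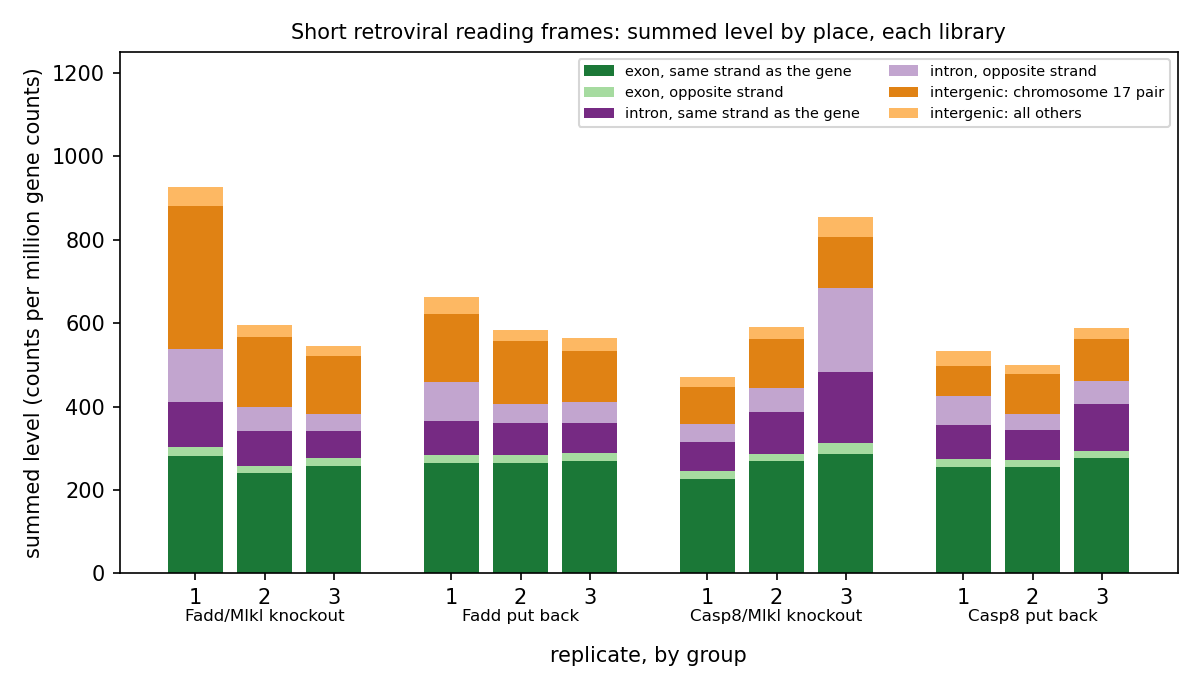
Summed level of the 1207 short frames in each library (CPM, stacked bars), split by the place of the frame in the gene annotation. Same-strand exon frames stay between 227 and 286 CPM, while intronic opposite-strand frames rise to 128 CPM in Fadd/Mlkl knockout replicate 1 and 200 CPM in Casp8/Mlkl knockout replicate 3.

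Of the 1207 members, 321 passed the filter on low counts and entered the fit, together with 161 longer frames; the other 886 were too thinly covered. No count was listed in at least 1 group for 53 members, 11 of them in the fit, and these could pass only through the groups that hold their counts. In the Fadd line, 2 of the 321 fell in the knockout relative to the put-back and none rose, at an edgeR adjusted p under 0.05 without a replicate block. With the block within each line, 8 fell and 3 rose. Without the block, 0.622% of all 482 frames in the fit were called lower. The share of all frames called with the block was not counted. At an unadjusted p under 0.05 in edgeR, 17 members (5.3%) were higher and 12 (3.74%) lower, against 4.56% of all 482 frames higher and 4.15% lower. The median log2 change was 0.04 over the members and 0.02 over all 482 frames.

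The first of the called frames, chr16:3630789-3631760 (minus strand), is the end of an intergenic stretch of 5 members at chr16:3627696-3631760. The stretch lies 75458 bases from Mefv, the pyrin gene, with the pseudogene Olfr163-ps1 on the other side. The frame was at 0.0274, 0.0745 and 0.0871 CPM in the Fadd/Mlkl knockout and at 0.617, 0.69 and 0.584 CPM in the put-back (log2 change -3.20, SE 0.587, edgeR adjusted p = 0.015). In the Casp8 line it was at 0.0888, 0.297 and 0.295 CPM without Casp8 and 0.206, 0.126 and 0.139 CPM with it, where the groups overlapped. The whole stretch summed to 0.238, 0.317 and 0.37 CPM in the Fadd/Mlkl knockout and to 2.63, 2.53 and 2.98 CPM in the put-back. All 3 put-back libraries of the Fadd line were above the 9 other libraries, which ran from 0.233 to 1.5 CPM. The other 4 members of the stretch had log2 changes of -3.60 to -2.35 and did not pass (edgeR adjusted p = 0.0787 to 0.169); the nearest to the threshold by unadjusted p was its overlapping neighbour chr16:3630022-3630936.

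The other called frame, chr7:48129938-48131425 (1488 bases, minus strand), is intergenic, 36558 bases from Mrgprb5, an orphan receptor gene. It had no count in any Fadd/Mlkl knockout library and 0.16, 0.364 and 0.335 CPM in the put-back, which is at least 14.7-fold lower in the knockout when set against 3 counts over the group (edgeR adjusted p = 0.015). In the Casp8 line it was at 0.244, 0.716 and 0.472 CPM without Casp8 and at 0.128, 0.438 and 0.585 CPM with it. The frame is thus counted in 9 of 12 libraries, all but those of the Fadd/Mlkl knockout. Its overlapping neighbour chr7:48129171-48130085 had 1 count in the Fadd/Mlkl knockout and 15 in its put-back, summed over each group.

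The difference of the put-back effects between the lines was itself tested. Again 2 members passed and both were these frames, with log2 changes in the Fadd line minus the Casp8 line of -3.74 (chromosome 16) and -7.01 (chromosome 7), each with an edgeR adjusted p of 0.0498; of all frames in the fit, 0.622% were called lower and none of the members higher. Both differences lost the call without any single library other than replicate 1 of the Casp8/Mlkl knockout (edgeR adjusted p = 0.0513 to 0.239). Both Fadd-line calls were lost without replicate 1 or 3 of the Fadd/Mlkl knockout or replicate 2 or 3 of the put-back, which left 0 calls (edgeR adjusted p = 0.052 to 0.0926 for these frames). The labels state no pairing, and the replicate numbers were taken to pair the samples only from correlations within these data. With the replicate block over all libraries 7 members were called in the Fadd line, all lower, and with the block within each line 11, of which 8 were lower and 3 higher. DESeq2 called 8 and limma-voom 5 in the Fadd line, all lower. For these other fits the share of all frames called was not counted. In DESeq2 and with the block within each line, 4 of the 8 lower frames lay in the chromosome 16 stretch, and the others besides the chromosome 7 frame lay in introns of Gm49708 and AC132253.9 and in Peg10. With the block over all libraries the chromosome 16 frame lost the call on the difference between lines (edgeR adjusted p = 0.0642).

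In the Casp8 line no member passed (edgeR adjusted p under 0.05; 0.0% of all frames in the fit), and DESeq2 and limma-voom called none either. At an unadjusted p under 0.05 in edgeR, 22 members (6.85%) were higher and 1 (0.312%) lower in the Casp8/Mlkl knockout, against 5.6% of all 482 frames higher and 0.415% lower. The median log2 change was 0.35 over the members and 0.35 over all frames; with frames scaled on the totals of the frame table itself the latter was 0.05. The members with the smallest p lay in a stretch of 7 at chr6:3336125-3339960 (minus strand), in exons of Gm43197, a transcript of unsettled kind, and in an intron of Gm20559. The stretch summed to 0.233, 2.15 and 3.27 CPM in the Casp8/Mlkl knockout and to 0.501, 0.0842 and 0.0496 CPM in its put-back. Replicate 1 of the knockout was as low as the put-back, and replicates 2 and 3 were above every library of the put-back. In the Fadd line the stretch summed to 14.9, 4.43 and 3.27 CPM without Fadd and to 1.17, 2.66 and 2.43 CPM with it, with no overlap. The member chr6:3336678-3337793 was at 0.0333, 0.594 and 0.781 CPM without Casp8 and at 0.0884, 0.0253 and 0.0198 CPM with it (10.2-fold, log2 change 3.32, SE 0.925, edgeR adjusted p = 0.377). For chr6:3337831-3338334 the log2 change was 4.17 (SE 1.17) and for chr6:3338919-3339254 it was 5.18 (SE 1.44), both with an edgeR adjusted p of 0.377.

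The Casp8-line calls depended on the replicate 1 libraries. Without both replicate 1 libraries of the Casp8 line, 3 members were called higher, all in the chromosome 6 stretch (edgeR adjusted p = 0.0499 each), and without Casp8/Mlkl knockout replicate 1 alone, 1 was. Without all 4 replicate 1 libraries, 23 members were called higher in the Casp8/Mlkl knockout and 1, in Gin1, lower. Of the 23, all 7 members of the chromosome 6 stretch, 5 in the intron of Camk2b, and frames in introns of the interferon-induced genes Trim30a and Slfn8 made up 14. These are fits with 2 libraries a group, and the share of all frames called was not counted for them.

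More members were called between the lines than within either of them. Between the knockout groups, 34 of 321 members passed: 15 were higher in the Fadd/Mlkl knockout (4.67% of the members, in 5 stretches) and 19 lower (5.92%, in 14 stretches). Of all frames in the fit, 3.73% were called higher and 9.96% lower. Between the put-back groups, 16 members were higher in the Fadd line (4.98%, in 7 stretches) and 7 lower (2.18%, in 6 stretches), against 4.15% of all frames higher and 4.15% lower. The median log2 difference between the knockout groups was -0.22 over the members and -0.36 over all frames, and 0.1 and -0.03 between the put-back groups. Scaled on the totals of the frame table, the median over all frames between the knockout groups was -0.04, and the split changed from 15 higher and 19 lower (44.1% higher) to 24 higher and 14 lower (63.2% higher). The knockout-group count fell to 18 without Fadd/Mlkl knockout replicate 1. The count between the put-back groups, 23, fell to 11 and 13 without replicates 1 and 2 of the Fadd put-back, and to 11, 11 and 8 without replicates 1, 2 and 3 of the Casp8 put-back.

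Both comparisons find in part the same frames. Of the members higher in the Fadd line, 12 were called in both, which is 80.0% of the 15 called between the knockout groups and 75.0% of the 16 called between the put-back groups, and they lay in 4 stretches. Of those lower in the Fadd line, 7 were called in both, 36.8% of the 19 and 100.0% of the 7, in 6 stretches. The same overlap was not counted over all frames in the fit, so it is not read as particular to the short frames. The 2 comparisons set different libraries against each other, but both were taken from the same fit over all 12 libraries. The 2 lists of calls are therefore not independent, and their overlap is no separate support. With only the compared groups in the fit, 9 members were called between the knockout groups, against 34 in the main fit. Between the put-back groups 16 were called, against 23. The overlap of calls was not counted for these separate fits.

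**Figure D3:**
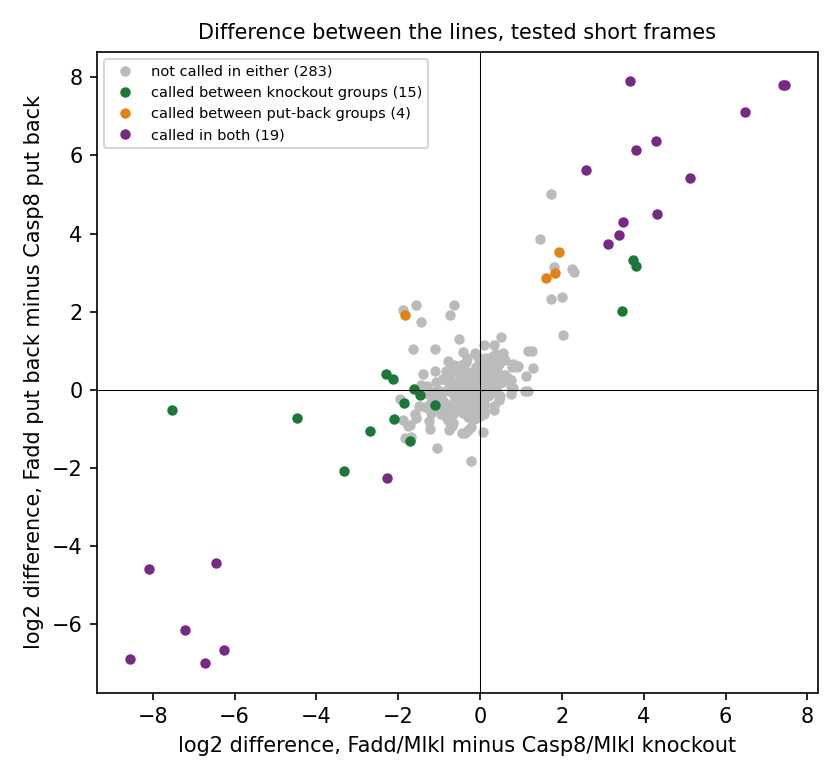
Fitted log2 difference between the lines for the 321 short frames in the fit, between the knockout groups (horizontal) and between the put-back groups (vertical). Frames called in both comparisons (19) lie in the upper right and lower left corners, 15 were called between the knockout groups alone and 4 between the put-back groups alone.

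Frames higher in the Fadd line lay mainly in introns of 2 genes. A stretch of 8 members at chr2:27496954-27502730, opposite to an intron of Brd3 (a bromodomain reader of acetylated histones), summed to 4.46, 1.41 and 0.925 CPM in the Fadd/Mlkl knockout and 4.96, 2.6 and 0.854 CPM in its put-back. The 6 libraries of the Casp8 line stayed at 0 to 0.0295 CPM. Of its 5 members in the fit, all 5 passed in both comparisons. These 5 became members and entered the fit only through the Fadd line, so their adjusted p-values are a description and no separate support. For chr2:27501848-27502462 the counts were 75 and 79 in the groups of the Fadd line and 0 in both groups of the Casp8 line, at least 20.1-fold and at least 32.6-fold higher against 3 counts over a group (edgeR adjusted p = 0.00693 and 0.00418). The neighbour chr2:27502125-27502730 had 73.5 and 79 counts against 0 and 0.5 (edgeR adjusted p = 0.00807 and 0.00507), and chr2:27500428-27501366 had 39 and 49.5 against 0 and 0 (adjusted p = 0.0323 and 0.0195). The last pair, chr2:27501396-27501899 and chr2:27498117-27498686, had at most 1 count in a group of the Casp8 line (edgeR adjusted p = 0.00751 to 0.0435). Without single libraries, 2 of the 5 lost calls. The frame chr2:27500428-27501366 did so without Fadd/Mlkl knockout replicate 1, Fadd put-back replicate 1 or any library of the Casp8 line (edgeR adjusted p = 0.0507 to 0.101). The frame chr2:27498117-27498686 did so without replicate 1 or 2 of either group of the Fadd line or any library of the Casp8 line (edgeR adjusted p = 0.0538 to 0.154). The gene Brd3 itself, at 63.2 to 93.8 CPM, did not pass: its log2 difference was -0.22 between the knockout groups and 0.11 between the put-back groups (edgeR adjusted p = 0.42 and 0.73).

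The stretch of 7 members at chr11:6006689-6010152 lies opposite to an intron of Camk2b, a calmodulin-dependent kinase known mainly from neurons. It summed to 26.6, 5.27 and 4.65 CPM in the Fadd/Mlkl knockout, 5.35, 1.89 and 1.44 CPM in its put-back, 0.0555, 1.17 and 1.61 CPM in the Casp8/Mlkl knockout and 0.255, 0.126 and 0.139 CPM in the Casp8 put-back. Every library of the Fadd/Mlkl knockout was above every library of the Casp8/Mlkl knockout, and replicate 1 of the Fadd/Mlkl knockout was far above the other 2. All 7 members passed between the knockout groups and 5 between the put-back groups; 1 of the 7 lost its call with the replicate block over all libraries (edgeR adjusted p = 0.0526). For chr11:6008217-6008561 the level between the knockout groups was 22.5-fold higher in the Fadd line (log2 difference 4.34, SE 1.01, edgeR adjusted p = 0.0105). Without Fadd/Mlkl knockout replicate 1 the difference was 3.08 (edgeR adjusted p = 0.055), without Casp8/Mlkl knockout replicate 1 it was 3.73 (0.0229) and without Casp8/Mlkl knockout replicate 3 it was 5.27 (0.0205). All 7 members lost the call between the knockout groups without Fadd/Mlkl knockout replicate 1 (edgeR adjusted p = 0.055 to 0.137). Between the put-back groups the same frame gave 4.49 (edgeR adjusted p = 0.0323), and the call was lost without replicate 1 or 2 of the Fadd put-back or any library of the Casp8 put-back (0.0522 to 0.145), where the difference moved to 3.66 without Fadd put-back replicate 1 and to 7.05 without Casp8 put-back replicate 1. Within the Fadd line the stretch was higher without Fadd with overlap of the groups, and with the replicate block within each line 2 of its members passed (log2 changes 1.78 and 2.28, edgeR adjusted p = 0.0471 each). The Camk2b gene itself was at 0.135 to 2.63 CPM and did not pass between the lines (edgeR adjusted p = 0.488 and 0.145).

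The remaining frames higher in the Fadd line were lone frames or parts of stretches. The intergenic frame chr13:119663964-119664878, 9605 bases from the chemokine gene Ccl28, was at 0.238 to 0.903 CPM in the 6 libraries of the Fadd line. In the Casp8/Mlkl knockout it was at 0.0333, 0 and 0.059 CPM, and in the Casp8 put-back it had no count (at least 34.7-fold, edgeR adjusted p = 0.000489). This frame, too, entered the fit only through the Fadd line, so its adjusted p-value is a description. The Oxr1 intron frame chr15:41808753-41809277 was, between the put-back groups, 8.40-fold higher (log2 difference 2.87, edgeR adjusted p = 0.00627; 3.56 without Casp8 put-back replicate 1) and its host gene also passed (log2 difference 2.18, adjusted p = 0.0177). In the chromosome 6 stretch, chr6:3338919-3339254 passed in both comparisons and chr6:3336678-3337793 between the put-back groups (12.8-fold, log2 difference 3.52, edgeR adjusted p = 0.0265; 4.12 without Casp8 put-back replicate 1); with the replicate block over all libraries the first lost its call between the knockout groups (adjusted p = 0.0789). Both calls on chromosome 6 between the put-back groups were lost without Fadd put-back replicate 2 or any library of the Casp8 put-back, and that of chr6:3338919 without Fadd put-back replicate 3 (edgeR adjusted p = 0.0538 to 0.116). Between the knockout groups chr6:3338919 lost its call without Fadd/Mlkl knockout replicate 1, Fadd put-back replicate 2 or 3 or any library of the Casp8/Mlkl knockout (edgeR adjusted p = 0.0537 to 0.245).

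**Figure D4:**
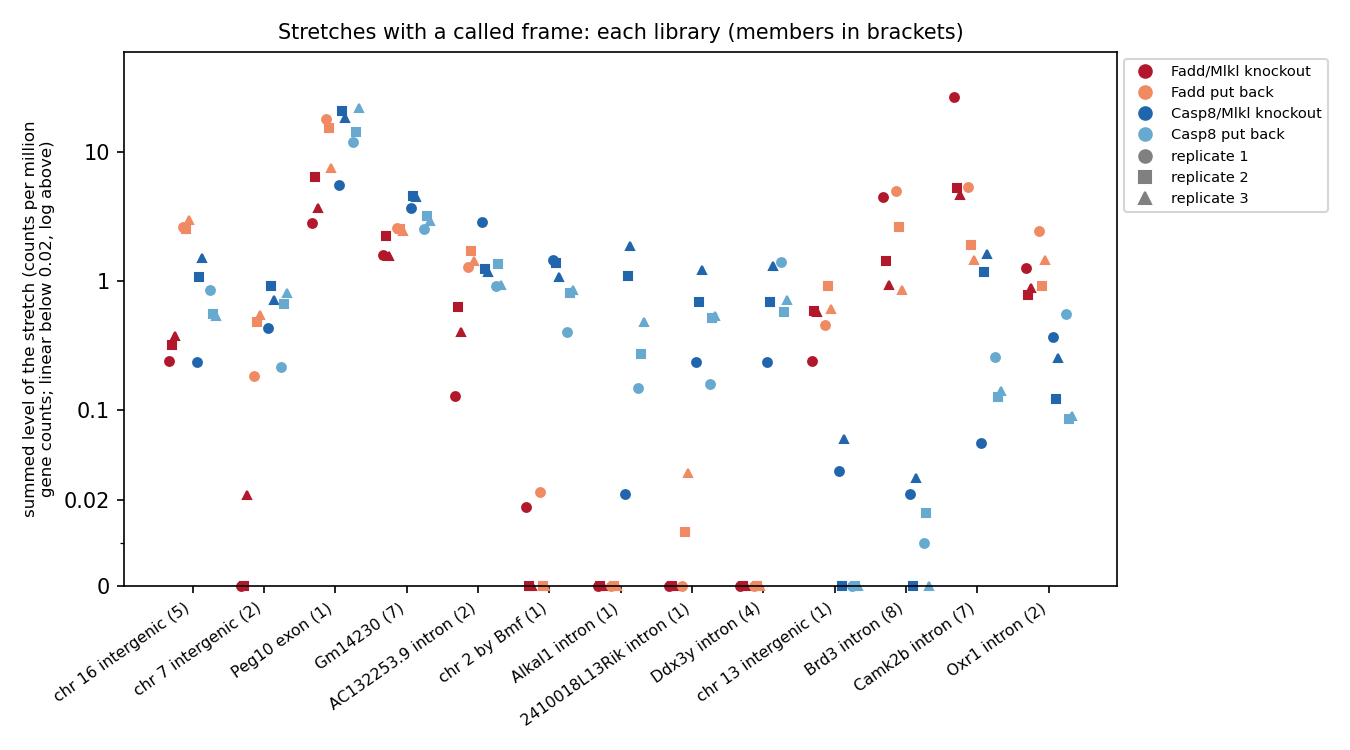
Summed level of 13 stretches that hold a called frame, in each of the 12 libraries (CPM, linear below 0.02 and logarithmic above), coloured by group, with the number of members in brackets. The Alkal1, Ddx3y and Brd3 stretches are at or near 0 in every library of one line, and the chromosome 7 stretch is at 0 to 0.0218 CPM in the Fadd/Mlkl knockout.

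Of the 19 frames lower in the Fadd/Mlkl knockout than in the Casp8/Mlkl knockout, 9 were lone frames and 10 belonged to 5 stretches of 2 or more members, and the host genes of several passed in the same direction. The intergenic frame chr2:118556235-118556879, 6548 bases from Bmf (a pro-apoptotic BH3-only gene), was at 1.44, 1.37 and 1.06 CPM in the Casp8/Mlkl knockout and 0.403, 0.8 and 0.853 CPM in its put-back. Each group of the Fadd line held 1 count (log2 difference -7.22 and -6.15, edgeR adjusted p = 5.78e-05 and 0.000279). The frame thus entered the fit only through the Casp8 line, and these adjusted p-values are a description. The ratio between the knockout groups was 202, with a counting interval of 35.8 to 8040. Within the Casp8 line the groups of this frame did not overlap, but it did not pass (edgeR adjusted p = 0.796). Bmf itself did not pass between the lines (edgeR adjusted p = 0.18 and 0.391).

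The frame chr1:6366679-6367590, in an intron of Alkal1 (a ligand of the receptor kinases ALK and LTK), had no count in the Fadd line. It was at 0.0222, 1.08 and 1.86 CPM in the Casp8/Mlkl knockout and 0.147, 0.269 and 0.476 CPM in its put-back (at least 46.7-fold and at least 12.8-fold, edgeR adjusted p = 0.00807 and 0.0448). The frame became a member and entered the fit only through the Casp8 line, so its adjusted p-values are a description. Alkal1 itself passed in both comparisons (edgeR adjusted p = 0.000518 and 0.00216). Between the put-back groups the Alkal1 frame lost its call without any of the 6 put-back libraries or without Casp8/Mlkl knockout replicate 2 (edgeR adjusted p = 0.0518 to 0.11). The frame chr12:22987532-22987792 in an intron of the long intergenic RNA 2410018L13Rik had 0 and 2 counts in the groups of the Fadd line and 83 and 65.5 in those of the Casp8 line (edgeR adjusted p = 0.00123 and 0.0162), and its host passed too (adjusted p = 0.000165 and 0.00423). The frame lost the second call without replicate 1 or 2 of the Fadd put-back or replicate 2 or 3 of the Casp8 put-back (edgeR adjusted p = 0.0503 to 0.0724). The same holds for chr3:29914146-29915111 in Mannr (0 and 1.5 counts against 27.5 and 32.5; edgeR adjusted p = 0.0103 and 0.0374 for the frame, 0.00123 and 0.00754 for the gene), where the second call was lost without any library of the Fadd put-back, replicate 1 or 3 of the Casp8 put-back or Casp8/Mlkl knockout replicate 2 (edgeR adjusted p = 0.0592 to 0.147). The frames of 2410018L13Rik and Mannr also entered the fit only through the Casp8 line, so their adjusted p-values are a description as well. The chromosome 7 frame with no count in the Fadd/Mlkl knockout was at least 24.6-fold lower there than in the Casp8/Mlkl knockout (edgeR adjusted p = 0.000995) and did not pass between the put-back groups (adjusted p = 0.864). Some markers of cell types moved with the line. The sums of the fibroblast and neural lists did not overlap between the lines, and those of the other marker lists did. These are sums, and the direction of each single gene is not given here. The sum of the fibroblast markers ran from 1850 to 4620 CPM over the libraries of the Fadd line and from 5840 to 14700 CPM over those of the Casp8 line. The sum of the 5 neural markers ran from 24.0 to 34.3 CPM and from 62.0 to 357 CPM, with Sox10 and Rbfox3 at 0. Within the Fadd line, the epithelial sum ran from 1.0 to 5.12 CPM in the knockout and from 6.05 to 36.9 CPM in its put-back. The neural sum there ran from 24.0 to 25.2 CPM and from 29.4 to 34.3 CPM. The other marker sums overlapped within the Fadd line, and all did within the Casp8 line. Of 8 fibroblast markers in the gene fit, 1 was called lower in the Fadd/Mlkl knockout. The part of these markers in the differences between or within the lines was not tested. The other frames called lower between the knockout groups included 3 of the stretch in Gm14230, which summed to 1.56 to 2.57 CPM in the Fadd line and to 2.51 to 4.56 CPM in the Casp8 line, and lone frames in introns of Farp2, Lpp and Sipa1l1. Each of the 3 Gm14230 calls was lost without several single libraries (edgeR adjusted p = 0.0514 to 0.201) and with frame-table totals (0.0826 to 0.258). Without Casp8/Mlkl knockout replicate 3 the log2 difference went from -3.33 to -1.48 for Lpp (edgeR adjusted p = 0.46), from -2.7 to -2.04 for Farp2 (0.124) and from -2.1 to -1.41 for Sipa1l1 (0.124). Each of these 3 calls was also lost without other single libraries of the Fadd/Mlkl knockout, and for some without those of other groups (edgeR adjusted p = 0.0506 to 0.141). With the replicate block over all libraries, Lpp (edgeR adjusted p = 0.0903) and the intergenic frame chr3:96513254 (0.0559) lost that call, and the latter also lost it without 7 of the single libraries (0.0544 to 0.163; log2 difference -2.27, and -1.58 without Casp8/Mlkl knockout replicate 1).

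Some Y-linked frames also differed between the lines. Of 8683 short frames on chromosome Y, 10 were members, and 6 of these had no count in any library of the Fadd line. These 6, in introns of Ddx3y, Uty and Kdm5d, summed to 0.255, 0.804 and 2.15 CPM in the Casp8/Mlkl knockout and to 1.52, 0.732 and 0.872 CPM in its put-back. The 2 of them in the fit, chrY:1276496-1277227 and chrY:1275680-1276276 in Ddx3y, were at least 9.51-fold to at least 14.1-fold lower in the Fadd line (edgeR adjusted p = 0.00722 to 0.0161). All 6 became members only through the Casp8 line, so these adjusted p-values are a description. Other Y members, in introns of Gm47283, were better covered and had counts in every library of both lines. All of these were in the fit, and none was called between the knockout groups (log2 differences -1.88, -1.075 and -1.122) or between the put-back groups (-0.761, 0.187 and -0.264). Ddx3y, a Y-linked RNA helicase, and the Y-linked genes Kdm5d, Eif2s3y and Uty were at 0 to 0.0186 CPM in the Fadd line. Whether the reads over the Gm47283 frames come from chromosome Y was not tested. The low level of Ddx3y in replicate 1 of the Casp8/Mlkl knockout went with a low frame sum (0.255 CPM), whereas the frames of Casp8 put-back replicate 1 (1.52 CPM) were above those of the other libraries of that group.

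Several frames were highest in Fadd/Mlkl knockout replicate 1, the library in which the interferon response genes were highest too. The 40 listed genes summed to 8130, 2420 and 2260 CPM in the Fadd/Mlkl knockout and to 789, 1600 and 1690 CPM in its put-back. In the Casp8 line they summed to 422, 1250 and 1130 CPM without Casp8 and to 487, 470 and 484 CPM with it. The chromosome 6 stretch had the same library on top, was lowest in replicate 1 of its group in the Fadd put-back and in the Casp8/Mlkl knockout, and lay 32297 bases from Samd9l, an interferon-induced gene (375, 209 and 146 CPM in the Fadd/Mlkl knockout, 102, 123 and 101 CPM in its put-back). The frame chr7:104413779-104415041, opposite to an intron of Trim30a (an interferon-induced TRIM protein), was at 3.21, 0.317 and 0.272 CPM in the Fadd/Mlkl knockout and at 0.0343, 0.125 and 0.162 CPM in its put-back. It was at 0.0222, 0.154 and 0.147 CPM in the Casp8/Mlkl knockout and at 0.0786, 0 and 0 CPM in the Casp8 put-back. Trim30a itself was at 97.0, 18.5 and 28.3 CPM in the Fadd/Mlkl knockout, against 0.152 to 8.99 CPM elsewhere. The frame passed between the knockout groups (log2 difference 3.46, edgeR adjusted p = 0.041; 0.165 with the replicate block over all libraries). The call was lost without Fadd/Mlkl knockout replicate 1 (log2 difference 1.37, edgeR adjusted p = 0.389), Fadd put-back replicate 2 or 3 or any library of the Casp8/Mlkl knockout (0.0506 to 0.0991). The frame did not pass within the Fadd line (log2 change 3.42, edgeR adjusted p = 0.152), where the groups did not overlap. The Camk2b stretch was also highest in Fadd/Mlkl knockout replicate 1, and in the Casp8/Mlkl knockout it was lowest in replicate 1, as the interferon response genes were. In the Fadd put-back the order was the reverse. There the Camk2b stretch was highest in replicate 1 (5.35, 1.89 and 1.44 CPM), the library in which those genes were lowest. The part of interferon-induced host transcripts in these frames was not tested, nor was that of the lower protein-coding share.

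**Figure D5:**
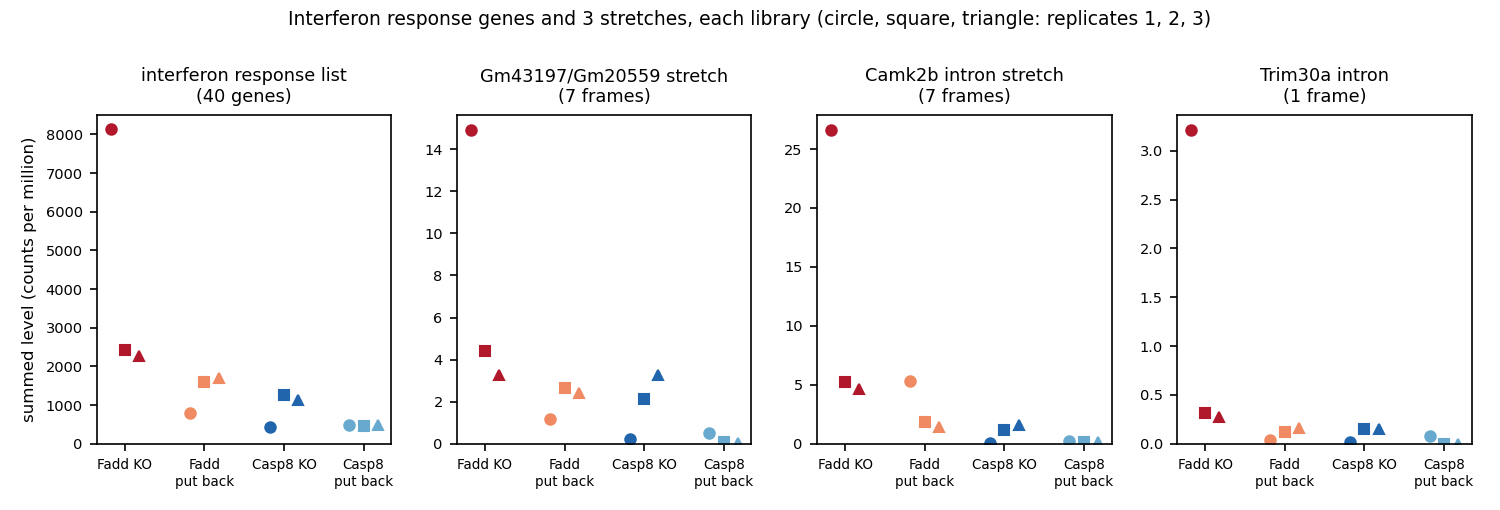
Summed level (CPM, linear axes from 0) of 40 interferon response genes and of 3 stretches of short frames in each library, by group, with a marker for each replicate. Fadd/Mlkl knockout replicate 1 is the highest library in all 4 panels, at 8130 CPM for the genes and 14.9, 26.6 and 3.21 CPM for the stretches. Within the Fadd put-back, replicate 1 is the highest library for the Camk2b stretch (5.35 CPM) and the lowest for the genes (789 CPM).

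Genes that act on retroelements were read from lists for silencing, restriction and sensing. Of 16396 genes in the gene fit, 0.287% were called higher and 1.24% lower in the Fadd/Mlkl knockout, and 0.0% higher and 0.0061% lower in the Casp8/Mlkl knockout. Of 34 silencing genes in the fit, only Suv39h1, a histone H3 lysine 9 methyltransferase, was called. It was at 48.4, 56.2 and 62.6 CPM in the Fadd/Mlkl knockout and 99.6, 106 and 110 CPM in its put-back (log2 change -0.89, SE 0.173, edgeR adjusted p = 0.0291), and at 73.0 to 104 CPM in the Casp8 line. Trim28 (log2 change 0.03), the H3K9 methyltransferase Setdb1 (-0.06) and the maintenance DNA methyltransferase Dnmt1 (0.15) did not pass in the Fadd line (edgeR adjusted p = 0.923 to 1.0). The list's median log2 change was 0.03 in the Fadd line and -0.06 in the Casp8 line.

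No retrovirus restriction gene of 18 in the fit passed in either line (edgeR; median log2 change 0.61 and 0.44). Apobec3, a cytidine deaminase that mutates retroviral cDNA, was at 19.6, 18.7 and 23.5 CPM without Casp8 and at 5.38, 2.49 and 3.25 CPM with it (log2 change 2.48, edgeR adjusted p = 0.0644). Of 20 nucleic acid sensing genes, Oasl1 was the only one called, higher in the Fadd/Mlkl knockout (61.4, 13.8 and 13.1 CPM against 1.05, 2.69 and 2.01 CPM; log2 change 3.94, edgeR adjusted p = 0.00916). It was also the only one called of 38 interferon response genes. At an unadjusted p under 0.05 in edgeR, 28 of these 38 were higher and 0 lower in the Fadd/Mlkl knockout, against 4.4% of all 16396 genes higher and 5.87% lower. In the Casp8/Mlkl knockout 24 of the 38 were higher and 0 lower, against 4.12% of all genes higher and 1.56% lower. The list had median log2 changes of 1.94 and 2.14, against 0.0 and 0.01 over all genes. Zbp1 was at 68.7, 7.45 and 12.9 CPM in the Fadd/Mlkl knockout and 0.251, 3.11 and 3.76 CPM in its put-back (log2 change 3.62, edgeR adjusted p = 0.189). Zbp1 in the Casp8 line was at 0.289, 0.837 and 1.21 CPM without Casp8 and at 0.137, 0.0168 and 0 CPM with it (log2 change 3.87, edgeR adjusted p = 0.701). Over the 321 short frames in the fit the median log2 changes were 0.04 and 0.35, beside 0.02 and 0.35 over all frames.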

How the data were processed

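RNA of 12 libraries, 3 in each of 4 groups, was examined in gene tables and in a table of 60983 retroviral reading frames. Per the labels' protocols, the authors trimmed reads with Trim Galore, aligned them to mm10 with STAR on GENCODE M22 and made the expected counts, TPM and FPKM of each gene with RSEM. The deposited TPM and FPKM values were not used. The submitters' processing notes name Trim Galore 0.5.0, STAR 2.7.5a and HOMER 4.11, with no version for RSEM. The deposited frame table holds estimated counts in steps of 0.5, of which 46.7% of those above 0 are not whole. The sources used here name neither the tool that made them nor how reads shared between places were counted. Frame names are those of the gEVE catalogue, per the file header, and places and host genes came from GENCODE M21, so genes that changed between the releases may be placed otherwise.

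Counts were rounded and fitted with edgeR 4.0.16 in R 4.3.3 (quasi-likelihood test, 4 group means, filterByExpr with a minimum count of 10). Library sizes and TMM factors came from the gene tables, in which 55573 gene rows remained after 92 spike-in rows were left out. P-values were adjusted (Benjamini-Hochberg) over all 482 frames or 16396 genes tested and called under 0.05. CPM was taken on gene-table totals. Sums were compared with two-sided exact permutation tests, for which 3 against 3 libraries allow no p below 0.1. Folds against a group without counts are lower bounds set at 3 counts over the group, and intervals (95%, exact) cover counting error only.

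Same-numbered libraries of a line deviated together from their group means (correlation over genes 0.66, 0.391 and 0.639 in the Fadd line, 0.203, 0.305 and 0.127 in the Casp8 line), so the numbers were taken to pair the samples, and fits with a replicate block are given where they change a call. limma-voom (limma 3.58.1), DESeq2 1.42.0, other scalings, filters, length and count limits, and left-out libraries were the alternatives.

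Frames named are the 10 highest, those called without overlap with the 5 highest and 5 lowest log2 changes in each comparison and at least 10 counts on average in the highest group, and the 3 with the smallest p where fewer than 3 were called. Frames in coding exons, further frames of their stretches, and the frames of Trim30a, Slfn8, Oxr1, Mannr, Gm14230, Farp2, Lpp and Sipa1l1 and at chr3:96513254 were chosen after their values were seen. The members and gene lists were chosen with earlier results of these data known. Of the listed genes and markers, 5 were not matched in the tables. Of the other marker lists, over all libraries epithelial genes summed to 1.0 to 36.9 CPM, endothelial to 0.168 to 1.26 CPM and muscle to 0.648 to 2.21 CPM, with none called.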

Additional observations from a re-analysis of the deposited data

Results flagged for a closer look

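The 2 results below stood out because the effect of putting the gene back differed between the lines by the test of that difference. For the intergenic frame on chromosome 16 at 3630789, the log2 change in the Fadd line minus that in the Casp8 line was -3.74 (edgeR adjusted p = 0.0498). For the intergenic frame on chromosome 7 at 48129938, which had no count in the Fadd/Mlkl knockout, the difference was -7.01 (edgeR adjusted p = 0.0498); this fitted value depends on the prior count and is no bound. Both lie just under the threshold.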

How the results depend on the processing

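The counts of members called changed with several settings. The share of all frames called was not counted under these other settings. In the Fadd line the count was 2, against 6 with frame-table totals, 7 without the filter, 7 with the replicate block over all libraries, 11 with the block within each line, 4 with only the compared groups, 7 without all replicate 1 libraries, 4 without both Casp8-line replicate 1 libraries, 5 in limma-voom, 8 in DESeq2, 1 at a length limit of 1000, and 0 to 4 with 1 library left out. In the Casp8 line it was 0, against 2 without the filter, 24 without all replicate 1 libraries, 3 without both Casp8-line replicate 1 libraries, and 0 to 1 with 1 library left out. For the difference between lines it was 2, against 0 without TMM, 1 with frame-table totals, without the filter, with doubled counts, with the block over all libraries, in limma-voom and at a length limit of 1000, 6 in DESeq2, 11 without all replicate 1 libraries and 0 to 4 with 1 library left out. Between the knockout groups it was 34, against 9 with only the compared groups, 73 without all replicate 1 libraries and 18 to 47 with 1 left out (lowest without Fadd/Mlkl knockout replicate 1). Between the put-back groups it was 23, against 39 without all replicate 1 libraries and 8 to 34 with 1 left out (lowest without Casp8 put-back replicate 3). The summed level (log2) was 0.19 in the Fadd line (-0.08 to 0.33 with 1 left out, -0.00972 without all replicate 1 libraries, 0.15 with the block), 0.24 in the Casp8 line (-0.03 to 0.42; 0.2 with the block), 0.11 between the knockout groups (-0.16 to 0.38; -0.05 without the highest member, -0.34 without all replicate 1 libraries) and 0.16 between the put-back groups (0.09 to 0.22). The cause was not tested. Of 729 alternative values of 34 named calls, 613 kept their direction and call, 116 lost the call and 0 turned. The block within each line was not run between the lines, where line and block cannot be told apart. With a median of 47 counts a member over 12 libraries, 886 of 1207 members were too thinly covered to be tested.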
